A study of Mus musculus with 7 samples.

Results

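Genes of glucose uptake, glycolysis, lactate formation, the pentose phosphate pathway and glycogen turnover were followed in mouse primary keratinocytes whose Trp63 had been silenced, together with the hypoxia factor gene Hif1a and the growth factor gene Vegfa. The 40 genes were listed by name. A gene was taken where a probe set, the group of probes that reads a transcript on an Affymetrix array, carried its symbol alone in the platform annotation. The brightest probe set by its mean over the 7 arrays stood for the gene, except that every Slc2a3 probe set is given. In this way 36 of the 40 genes were read among 22626 tested probe sets. Gapdh was read by control probe sets of the array only, and Gpi1, Eno1 and G6pdx had no probe set under this rule and were not analysed here.

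Keratinocytes are the epithelial cells of the epidermis. They had been transiently transfected with an siRNA oligonucleotide against Trp63 (5 arrays, replicates 1, 2, 3, 4 and 7) or with a non-specific siRNA oligonucleotide (2 arrays, replicates 5 and 6), and were collected 48 h later. Trp63 encodes p63, a transcription factor of stratified epithelia, and the comparison asks how the listed genes differ once it is reduced. Mouse strain, age and passage are not given in the labels used here, and neither is whether replicates were separate cultures. The tests therefore compare arrays, whose spread may be technical, and a control group of 2 arrays limits the precision of every value.

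As background, glucose enters cells through facilitative carriers of the Slc2a family and is trapped by hexokinase. Glycolysis converts it to pyruvate, with phosphofructokinase as a main point of control. Pyruvate is then reduced to lactate, which leaves through monocarboxylate carriers, or enters mitochondria through pyruvate dehydrogenase, which the Pdk kinases inhibit. The pentose phosphate pathway branches off the first glycolytic intermediate and yields NADPH and ribose. The factor HIF-1, whose regulated subunit is encoded by Hif1a, raises transcription of many of these genes when oxygen is low. Epidermis draws much of its energy from glycolysis.

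Trp63 itself read 541, 519, 457, 504 and 492 with Trp63 siRNA against 1447 and 1683 with control siRNA at its brightest probe set (3.04-fold lower, limma adjusted p = 1.0e-05). Every silenced array read below both controls. The other Trp63 probe sets fell less, also without overlap. One fell 1.40-fold (mean 163 against 235, limma adjusted p = 0.00228) and the next 1.45-fold (mean 139 against 209, limma adjusted p = 0.00034). The measured depth of silencing thus differed between probe sets. Basal keratinocyte markers other than Krt15 were bright on every array, with Krt14 at 14413 to 15168 in the silenced group and 16960 and 17165 in the controls. Krt15 read 118 to 136.5 in the silenced group and 174 and 169 in the controls, below every array median. All 9 measured markers of this type passed as lower. The ratio of 3′ to 5′ signal of the array's control transcripts, a sign of RNA quality, separated the groups, with actin at 1.14 to 1.25 on silenced arrays against 1.30 and 1.36 on controls and Gapdh at 0.905 to 0.938 against 0.983 and 0.980. Of melanocyte markers, 9 of 10 listed were measured, and their mean intensity was 1288 and 1362 on silenced replicates 1 and 2 and 1146 on control array 5, but 776 to 818 on silenced replicates 3, 4 and 7 and 761 on control array 6. These are called the arrays of high and of low melanocyte level. Each level holds a single control array, so differences within a level rest on that array and are given without a test. None of the 9 markers passed as changed. Markers of fibroblasts (mean 163 to 196 against 176 and 147) and immune cells (173 to 195 against 188 and 179) passed in 1 of 10 and 2 of 10 genes. Of 8 measured markers of endothelium, blood, muscle and fat, 2 passed, Fabp4 and Acta1, known from fat and muscle, both higher with Trp63 siRNA. The other 6 did not pass and had negative log2 differences, among them Adipoq of fat (-0.072) and Myh4 of muscle (-0.085). Spike transcripts, added as technical controls, were brighter on silenced replicates 2, 3 and 7 (8.69 to 8.85 as mean log2 level) than on the other 4 arrays (8.16 to 8.36). Lastly, silenced replicates 3, 4 and 7 were the most alike, with SDs of their log2 differences over all probe sets between 0.075 and 0.091, against 0.142 for the control pair and 0.194 for silenced replicates 1 and 2. The part of these ratios and levels in the results was not tested. In such bulk samples a lower level can come from fewer cells of a type or from less RNA per cell, which cannot be told apart here.

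The commonest difference was a fall. Of the 36 measured genes, 14 (38.9%) passed limma's test as lower with Trp63 siRNA, 4 (11.1%) passed as higher and 18 did not pass. Over the whole array, 8.16% of probe sets were called lower and 7.83% higher. The median log2 difference was -0.12 over the 36 genes and -0.034 over all probe sets. Bright probe sets were called more often, and 30 of the 36 genes lay in the brighter 50% of the array by mean level, where 13.2% of probe sets were lower and 13.8% higher when tested alone. There 13 of the 30 passed as lower and 3 as higher. The largest falls were those of the glucose carrier gene Slc2a1, the phosphofructokinase genes Pfkl and Pfkp, the lactate dehydrogenase gene Ldhb and the pyruvate dehydrogenase kinase gene Pdk1, and the largest rise was that of Slc2a3. Which probe set stood for Slc2a3 depended on the silenced arrays, where 1437052_s_at was the brightest. On the controls the brightest was 1427770_a_at, with a mean of 140 against 82.05, and it did not pass.

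These counts rested on both controls. With control array 5 left out 7 genes were lower and 2 higher, and with control array 6 left out 5 were lower and 1 higher, in each case all of them genes called the same way with all 7 arrays. The share of all probe sets called fell as well when either control was left out. With the spike level as a block 6 genes were lower and 4 higher, beside 3.47% and 5.02% of all probe sets. With the melanocyte level as a block 15 were lower and 4 higher, beside 12.8% and 11.3% of all probe sets. The shares with the spike block also belong beside the later counts under that block. Slc2a1, Pfkl, Ldha and Slc16a3 kept their call as lower, and Slc2a3 its call as higher, under each of the alternatives in which they could be tested.

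**Figure D1:**
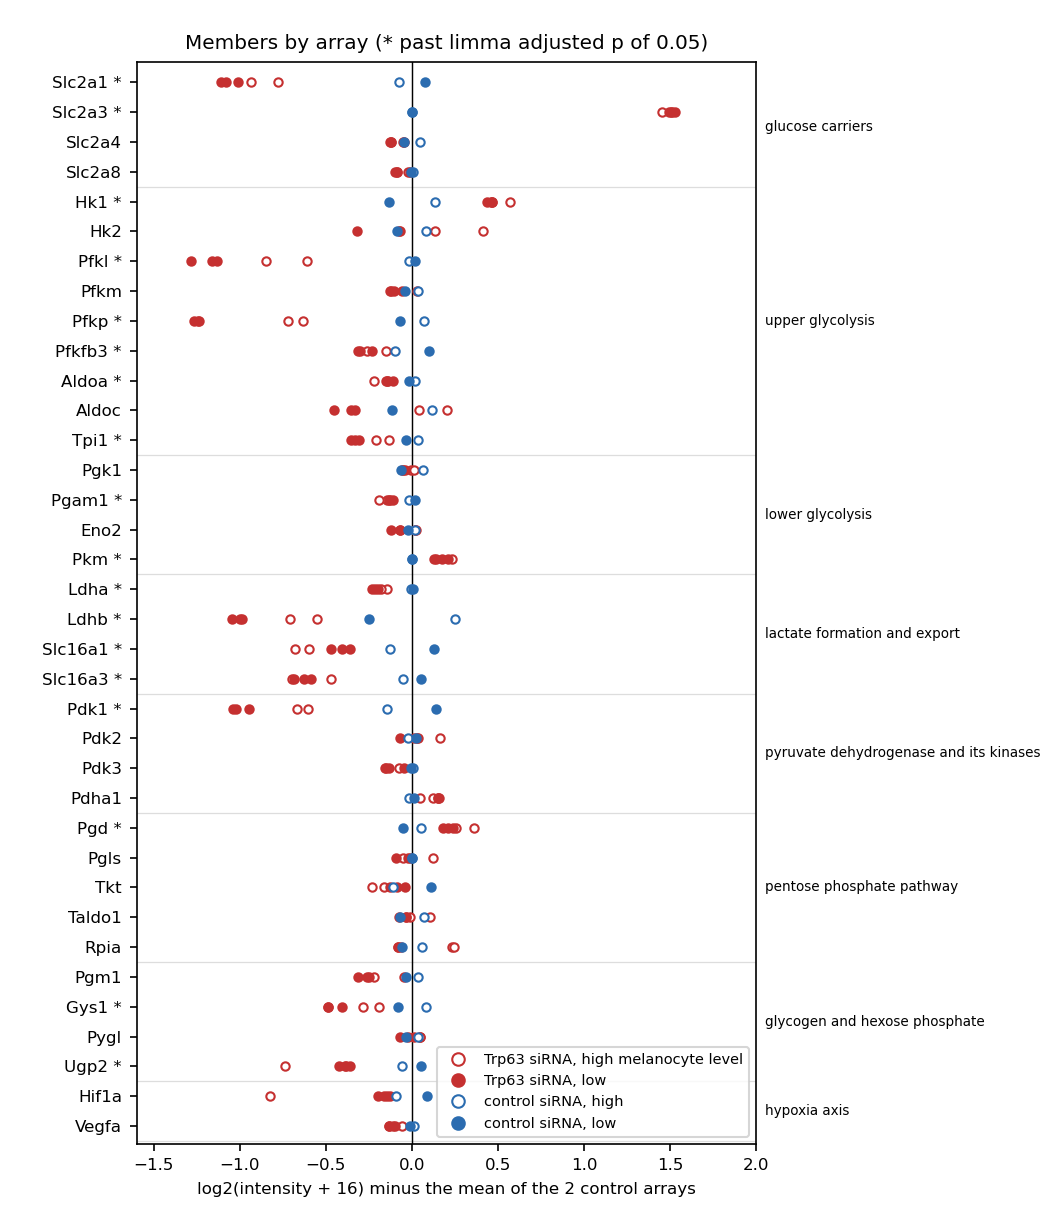
Each row is 1 of the 36 measured genes and each point 1 array, with log2(intensity + 16) minus the mean of the 2 controls on the x axis; red points are the 5 arrays with Trp63 siRNA, blue points the 2 with control siRNA, open points the arrays of high melanocyte level, and a star marks limma adjusted p below 0.05. Slc2a3 stands alone at 1.5, while Slc2a1, Pfkl, Pfkp, Ldhb and Pdk1 lie to the left of both controls on all 5 silenced arrays.

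The sequences upstream of the 4 genes that kept their lower call throughout are shown with their matches to the core of the hypoxia response element, which is known in the forms ACGTG and GCGTG. Each is the 250 bases before a RefSeq transcription start (build GRCm38.p6), 5′ to 3′ on the strand of the gene, and capitals mark the form ACGTG or its reverse complement CACGT, which overlap in CACGTG. The windows are chr4:119108495-119108744, plus strand for Slc2a1, chr10:78009808-78010057, minus strand for Pfkl, chr7:46845554-46845803, plus strand for the first of 2 starts of Ldha, and chr11:120948817-120949066, plus strand for Slc16a3.
Slc2a1: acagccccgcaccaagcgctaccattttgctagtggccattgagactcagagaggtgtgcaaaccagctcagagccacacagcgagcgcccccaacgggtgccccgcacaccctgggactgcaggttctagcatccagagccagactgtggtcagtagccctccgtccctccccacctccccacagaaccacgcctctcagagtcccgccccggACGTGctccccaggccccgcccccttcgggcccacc
Pfkl: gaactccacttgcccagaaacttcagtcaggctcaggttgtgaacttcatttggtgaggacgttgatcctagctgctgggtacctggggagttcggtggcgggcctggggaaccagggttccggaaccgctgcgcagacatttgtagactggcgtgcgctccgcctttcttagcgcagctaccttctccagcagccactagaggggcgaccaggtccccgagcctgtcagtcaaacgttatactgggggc
Ldha: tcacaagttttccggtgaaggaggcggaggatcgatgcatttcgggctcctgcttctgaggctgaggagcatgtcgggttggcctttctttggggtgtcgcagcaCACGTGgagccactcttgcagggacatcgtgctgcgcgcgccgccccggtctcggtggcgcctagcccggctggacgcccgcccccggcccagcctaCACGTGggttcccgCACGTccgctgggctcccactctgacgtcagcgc
Slc16a3: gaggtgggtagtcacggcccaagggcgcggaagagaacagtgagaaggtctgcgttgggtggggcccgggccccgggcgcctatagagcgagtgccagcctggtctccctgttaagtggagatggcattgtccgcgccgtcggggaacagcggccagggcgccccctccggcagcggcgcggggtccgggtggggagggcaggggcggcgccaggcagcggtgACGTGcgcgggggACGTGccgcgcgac

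For ACGTG, Slc2a1 had 1 match, 36 bases before its start, and Slc16a3 had 2, at 27 and 14 bases. Ldha had 5 overlapping or separate matches between 145 and 34 bases before its first start and none before its second, and Pfkl had none. For GCGTG or its reverse complement CACGC, left in lower case, the windows of Slc2a1, Pfkl and the second start of Ldha held 1 match each and those of Slc16a3 and the first start of Ldha 0. Over the list, 38 genes had a window in the table and Slc2a3 and Slc2a4 were not among them. ACGTG was found for 8 of the 14 genes called lower, 1 of 3 called higher and 9 of 17 not called. By window the shares were 50%, 16.7% and 43.5%, against 16.6% of all 32851 windows of this length, which include non-coding genes. With either form counted, the genes were 12 of 14, 3 of 3 and 16 of 17, beside 41.5% of all genes with a window. By window the shares were 75%, 50% and 82.6%, against 38.6% of all windows. A match is a run of letters and not a bound site.

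Among glucose carriers, Slc2a1 fell and Slc2a3 rose. Slc2a1 encodes GLUT1, the main glucose carrier of keratinocytes. Its brightest probe set read 1722, 1919, 1550, 1519 and 1628 with Trp63 siRNA against 3130 and 3480 with control siRNA. All 5 silenced values lay below both controls, and their mean was 50.5% of the control mean (log2 difference -0.98, SE 0.093, limma adjusted p = 0.000192). The other 2 Slc2a1 probe sets gave 1185, 1267, 1038, 1089 and 1089 with Trp63 siRNA against 2398 and 2698 with control siRNA, and 1143, 1133, 952, 972 and 923 with Trp63 siRNA against 2230 and 2603 with control siRNA. All 3 probe sets fell, with log2 differences of -0.98, -1.16 and -1.23, or decreases of 1.98-fold, 2.23-fold and 2.34-fold. The log2 difference at the brightest was -0.78 within the high arrays and -1.15 within the low arrays.

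Slc2a3 encodes GLUT3, a high-affinity glucose carrier best known from neurons, and its 4 probe sets did not move together. Probe set 1437052_s_at read 262, 252, 261, 263 and 267 with Trp63 siRNA against 82.2 and 81.9 with control siRNA (2.83-fold higher, log2 difference 1.5, SE 0.048, limma adjusted p = 6.5e-07). Probe set 1455898_x_at read 212, 196, 204, 204 and 223 with Trp63 siRNA against 79.4 and 80.8 with control siRNA (2.33-fold higher, log2 difference 1.22, SE 0.054, limma adjusted p = 3.6e-06). On both, the 5 silenced values were tightly grouped and far above the controls. The control values of 79.4 to 82.2 lay below the lower quartile of the arrays (116 to 122), a range where a fold change is understated.

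The remaining Slc2a3 probe sets did not pass. Probe set 1427770_a_at read 135, 135, 122, 128 and 127 with Trp63 siRNA against 147 and 133 with control siRNA, and the groups overlapped (log2 difference -0.10, SE 0.054, limma adjusted p = 0.225). Probe set 1421924_at read 104, 94.7, 109.9, 102 and 103 with Trp63 siRNA against 91.0 and 96.2 with control siRNA, again with overlap (log2 difference 0.11, SE 0.048, limma adjusted p = 0.148). The pair that rose is annotated to 1 shared source sequence, while the other two have a source each. In the naming of this platform the suffixes s and x mark probes that can match more than 1 transcript, and cross-hybridisation was not tested. The mean of all 4 probe sets passed as higher (log2 difference 0.68, limma adjusted p = 1.2e-05). That mean is carried by the pair that rose, so it cannot show whether the 4 agree.

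**Figure D2:**
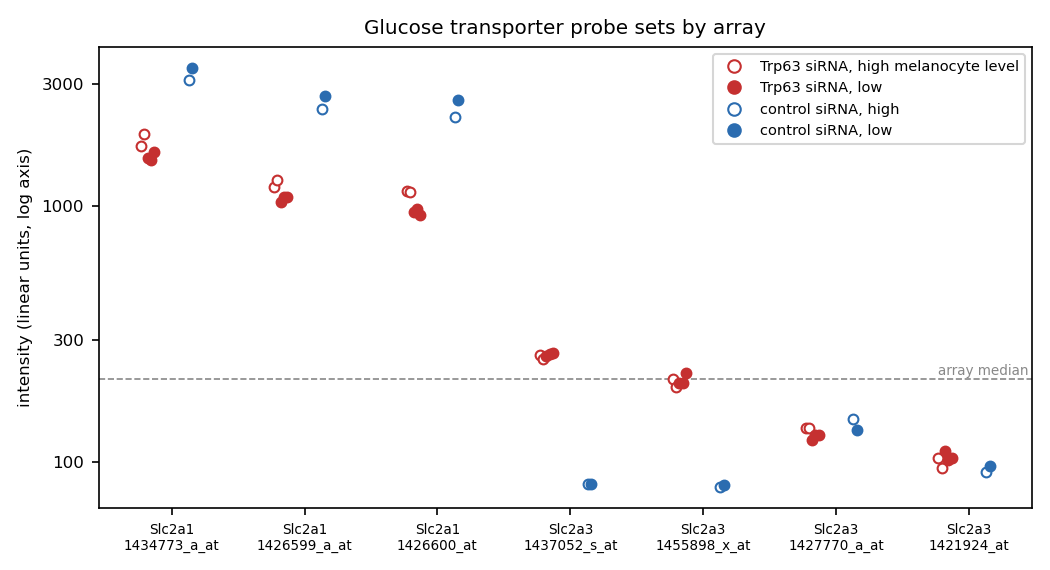
Intensity on a log axis for the 3 probe sets of Slc2a1 and the 4 of Slc2a3, 1 point per array, with red for Trp63 siRNA, blue for control siRNA and open points for high melanocyte level; the dashed line is the median array median. Slc2a1 is lower on all 3 probe sets, while Slc2a3 is higher on 2 and overlaps between groups on the other 2.

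The insulin-regulated carrier gene Slc2a4 and the intracellular carrier gene Slc2a8 did not pass (log2 differences -0.093, 95% interval -0.22 to 0.033, and -0.060, 95% interval -0.18 to 0.065). Slc2a4 read 213 ± 6.24 (SD, n = 5) against 228 ± 10.8 (SD, n = 2) and Slc2a8 read 243 ± 7.08 (SD, n = 5) against 254 ± 1.27 (SD, n = 2).

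Of the 9 measured genes of upper glycolysis, 5 fell (Pfkl, Pfkp, Pfkfb3, Aldoa and Tpi1), Hk1 rose and Hk2, Pfkm and Aldoc did not pass. The count of 5 lower became 2 without control array 5, 1 without control array 6 and 1 with the spike level as a block. Hk1 and Hk2 encode the hexokinases that trap glucose as its phosphate. Hk1 read 833, 774, 756, 772 and 771 with Trp63 siRNA against 611 and 505 with control siRNA, a rise of 1.40-fold with no overlap (log2 difference 0.48, SE 0.085, limma adjusted p = 0.00511), and its other probe set rose too (0.41). The call at the first ended without control array 6 (limma adjusted p = 0.0679). Hk2 read 1172, 964, 699, 831 and 834 with Trp63 siRNA against 928 and 825 with control siRNA, and the silenced values lay on both sides of the controls (log2 difference 0.019, 95% interval -0.36 to 0.39).

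Phosphofructokinase, which commits sugar phosphate to glycolysis, has liver, muscle and platelet subunits, named after the tissues they are known from. The liver subunit gene Pfkl read 972, 822, 603, 658 and 672 with Trp63 siRNA against 1473 and 1510 with control siRNA. All 5 silenced values lay below both controls, and their mean was 50% of the control mean (log2 difference -1.01, SE 0.16, limma adjusted p = 0.00329). The platelet subunit gene Pfkp read 626, 589, 398, 405 and 404 with Trp63 siRNA against 1028 and 932 with control siRNA (log2 difference -1.02, SE 0.19, limma adjusted p = 0.00641). In both genes silenced replicates 1 and 2 lay above replicates 3, 4 and 7 and still below the controls. The difference of Pfkl was -0.71 within the high arrays and -1.21 within the low arrays, and that of Pfkp -0.74 within the high arrays and -1.18 within the low arrays. The other Pfkl probe set also fell (-0.89), while the other Pfkp probe set did not pass (-0.34, limma adjusted p = 0.108). Pfkp lost its call without control array 5 (0.0665) or 6 (0.0521) and with the spike block (0.0508), each a limma adjusted p. The muscle subunit gene Pfkm read 228 ± 11.4 (SD, n = 5) against 241 ± 9.38 (SD, n = 2) and did not pass (-0.076, 95% interval -0.22 to 0.067).

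Pfkfb3 encodes an enzyme that makes the allosteric activator of phosphofructokinase. It read 192, 177, 170.3, 172 and 181 with Trp63 siRNA against 199.7 and 232 with control siRNA (log2 difference -0.25, SE 0.069, limma adjusted p = 0.0381), a difference that lost its call with 8 alternatives, among them quantile normalisation (limma adjusted p = 0.0573) and the removal of silenced replicate 2, 3, 4 or 7. Without control array 6 the log2 difference was -0.15 (limma adjusted p = 0.285). The other Pfkfb3 probe set did not pass and its groups overlapped (-0.063, limma adjusted p = 0.447). The aldolase gene Aldoa read 5383, 5082, 5326, 5367 and 5491 with Trp63 siRNA against 5993 and 5855 with control siRNA (log2 difference -0.15, SE 0.037, limma adjusted p = 0.0229), with 3 of its 4 probe sets called lower. The triose phosphate isomerase gene Tpi1 read 4599, 4366, 4005, 4062 and 3935 with Trp63 siRNA against 5159 and 4921 with control siRNA (log2 difference -0.27, SE 0.063, limma adjusted p = 0.0202), with 3 of 3 probe sets called lower. The larger of these falls was 1.20-fold, and both genes lost their call without either control and with the spike block. The second aldolase gene Aldoc read 423, 376, 263, 282 and 287 with Trp63 siRNA against 397 and 335 with control siRNA. Its silenced replicates 1 and 2 lay between or above the controls and replicates 3, 4 and 7 below both (log2 difference -0.18, limma adjusted p = 0.527), and without replicates 1 and 2 it passed as lower (-0.38, 0.0056).

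Of 4 measured genes of lower glycolysis, Pgam1 fell, Pkm rose, and Pgk1 and Eno2 did not pass. Pkm, encoding the pyruvate kinase of most tissues, read 7335, 6902, 7050, 7238 and 6830 with Trp63 siRNA against 6243 and 6253 with control siRNA, a rise of 1.13-fold with no overlap (log2 difference 0.18, SE 0.035, limma adjusted p = 0.00864). The phosphoglycerate mutase gene Pgam1 read 4904, 4743, 5006, 4932 and 4954 with Trp63 siRNA against 5344 and 5479 with control siRNA (log2 difference -0.14, SE 0.035, limma adjusted p = 0.0244). Both lost their call once either control was removed (limma adjusted p = 0.0613 and 0.0687 for Pkm, 0.0801 and 0.164 for Pgam1), and Pgam1 also without silenced replicate 4 or 7. Pgam1 lost its call with median centring (limma adjusted p = 0.0519) and with the spike block (0.1025) too. The phosphoglycerate kinase gene Pgk1 differed by -0.028 (95% interval -0.12 to 0.067), and the neuronal enolase gene Eno2 by -0.042 (95% interval -0.14 to 0.058).

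Gapdh, the dehydrogenase gene that often serves as a reference, was read by control probe sets for the 3′ end, the middle and the 5′ end of its transcript. The 3′ probe set read 9530, 9427, 9479, 9407 and 9537 with Trp63 siRNA against 10403 and 10310 with control siRNA (log2 difference -0.13, limma adjusted p = 0.00356 in a fit with the 64 control probe sets added). The middle probe set read 9763, 9579, 9700, 9668 and 9766 with Trp63 siRNA against 10509 and 10538 with control siRNA (log2 difference -0.12, limma adjusted p = 0.00533), and the 5′ probe set 10243, 10047, 10477, 10204 and 10397 with Trp63 siRNA against 10583 and 10517 with control siRNA (log2 difference -0.038, limma adjusted p = 0.304). The 3′ and middle probe sets thus passed as lower and the 5′ probe set did not. The Gapdh ratio of 3′ to 5′ signal was lower on all 5 silenced arrays than on either control.

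**Figure D3:**
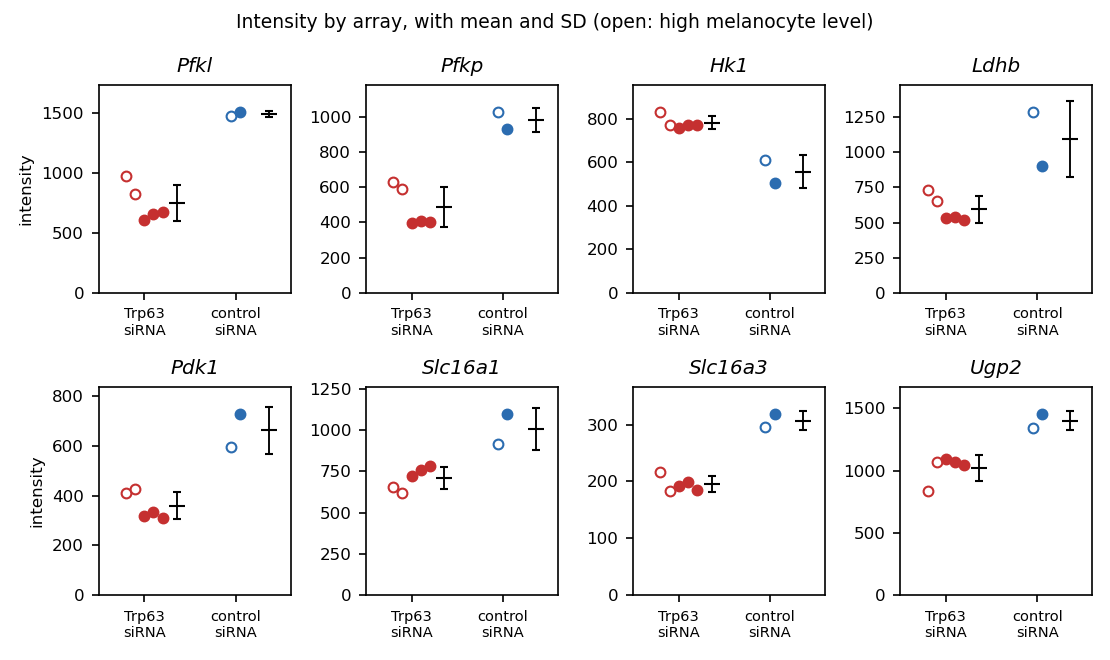
Intensity (linear axis from 0) of 8 genes by group, with 1 point per array, open for high melanocyte level, and the mean with SD to the right of each group. Hk1 is higher and the other 7 genes are lower on all 5 silenced arrays than on either control, and silenced replicates 1 and 2 stand above replicates 3, 4 and 7 for Pfkl, Pfkp, Ldhb and Pdk1.

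All 4 genes of lactate formation and export fell, with both subunits of lactate dehydrogenase and both monocarboxylate carriers. The count was 3 without control array 5, 3 without control array 6 and 2 with the spike block. Ldhb, encoding the heart-type subunit, read 734, 655, 533, 537 and 517 with Trp63 siRNA against 1290 and 906 with control siRNA (log2 difference -0.86, SE 0.17, limma adjusted p = 0.00817). The control values were far apart, but all 5 silenced values lay below both. The 4 Ldhb probe sets all fell, with log2 differences of -0.86 to -1.01. Ldhb lost its call without control array 5 (-0.61, limma adjusted p = 0.0992) and with the spike block (0.0626). Ldha, encoding the muscle-type subunit, read 8961, 8756, 8548, 8648 and 8459 with Trp63 siRNA against 9865 and 9965 with control siRNA. Its 1.14-fold fall was small but exceeded the spread of the arrays (log2 difference -0.19, SE 0.028, limma adjusted p = 0.00191).

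Slc16a1 and Slc16a3 encode MCT1 and MCT4, carriers of lactate, of which MCT4 is known for export from glycolytic cells. Slc16a3 read 217, 183, 193, 199 and 185 with Trp63 siRNA against 296 and 319 with control siRNA (log2 difference -0.61, SE 0.073, limma adjusted p = 0.000706). Slc16a1 read 658, 620.5, 721, 755 and 780.2 with Trp63 siRNA against 918 and 1098 with control siRNA (log2 difference -0.50, SE 0.11, limma adjusted p = 0.0133). No silenced value reached a control in either gene. For Slc16a1 the order within the silenced group was opposite to that of Pfkl, with replicates 1 and 2 lowest. Its call ended without control array 6 (limma adjusted p = 0.146) and with the spike block (0.0665).

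Of the genes around pyruvate dehydrogenase, Pdk1 fell, and Pdk2, Pdk3 and Pdha1 did not pass. Pdk1 encodes a kinase that switches the dehydrogenase off. It read 409, 428, 317, 334 and 312 with Trp63 siRNA against 595 and 729 with control siRNA (log2 difference -0.86, SE 0.14, limma adjusted p = 0.0035), and its other probe set fell as well (-0.74). The difference was -0.49 within the high arrays and -1.15 within the low arrays. Without control array 6 Pdk1 lost its call (limma adjusted p = 0.0598). Pdk2 differed by 0.034 (95% interval -0.094 to 0.16), and Pdk3 by -0.11 (95% interval -0.26 to 0.031). Pdha1, the catalytic subunit gene, read 2224 ± 68.5 (SD, n = 5) against 2036 ± 31.1 (SD, n = 2) and did not pass with all arrays (log2 difference 0.13, SE 0.052, limma adjusted p = 0.136). Its other probe set did not pass either (0.27, limma adjusted p = 0.0545), and neither overlapped between groups. The first passed as higher in 3 alternatives: array weights (limma adjusted p = 0.0398), and without silenced replicate 1 (0.0358) or replicates 1 and 2 together (0.0164).

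The pentose phosphate pathway showed 1 change among 5 measured genes. Pgd, encoding the second NADPH-forming dehydrogenase of the pathway, read 2408, 2241, 2125, 2208 and 2171 with Trp63 siRNA against 1939 and 1805 with control siRNA, a rise of 1.19-fold (log2 difference 0.25, SE 0.063, limma adjusted p = 0.0255). Its silenced values all exceeded the controls, 3 of its 4 probe sets passed, and the call ended once either control was removed (limma adjusted p = 0.0628 and 0.191) or without silenced replicate 4 or 7. Pgls, Taldo1 and Rpia differed by -0.011, -0.010 and 0.051 on the log2 scale, with 95% intervals of -0.16 to 0.14, -0.17 to 0.15 and -0.21 to 0.31. The transketolase gene Tkt read 4088, 3892, 4174, 4303 and 4441 with Trp63 siRNA against 4224 and 4936 with control siRNA, with overlap (log2 difference -0.13, SE 0.068, limma adjusted p = 0.236). With the melanocyte level as a block it passed as lower (-0.14, limma adjusted p = 0.0345).

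Of 4 genes of glycogen and hexose phosphate metabolism, Ugp2 and Gys1 fell. Ugp2 encodes the enzyme that makes UDP-glucose and Gys1 the glycogen synthase that uses it. Ugp2 read 833, 1066, 1089, 1068 and 1041 with Trp63 siRNA against 1345 and 1455 with control siRNA (log2 difference -0.46, SE 0.11, limma adjusted p = 0.0186), with 4 of its 5 probe sets called lower. Silenced replicate 1 stood apart at the low end. Gys1 read 287, 268, 231, 245 and 231 with Trp63 siRNA against 349.6 and 311 with control siRNA (log2 difference -0.37, SE 0.095, limma adjusted p = 0.0283), and its other probe set did not pass (-0.18). Both genes lost their call once either control was removed (limma adjusted p = 0.0733 and 0.152 for Ugp2, 0.224 and 0.0775 for Gys1), and Gys1 also without silenced replicate 3, 4 or 7 and with the spike block. The phosphoglucomutase gene Pgm1, called Pgm2 in older mouse annotation, read 370.4 ± 28.3 (SD, n = 5) against 432 ± 15.6 (SD, n = 2) and did not pass (log2 difference -0.22, SE 0.082, limma adjusted p = 0.109). It passed as lower in 3 alternatives, each with a limma adjusted p. These were array weights (0.0192), the removal of silenced replicate 1 (0.0115) and that of silenced replicates 1 and 2 together (0.00579). The glycogen phosphorylase gene Pygl differed by 0.004 (95% interval -0.088 to 0.10). Eno2 and Pygl both read between 88.4 and 103 on every array, under each array's lower quartile.

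Neither Hif1a nor Vegfa passed. Hif1a read 922, 1485, 1433, 1506 and 1468 with Trp63 siRNA against 1545 and 1754 with control siRNA at its brightest probe set. The value of silenced replicate 1 was far below the other silenced arrays (log2 difference -0.29, 95% interval -0.69 to 0.11, limma adjusted p = 0.301). Without it the difference was -0.16 (limma adjusted p = 0.0881). The other 3 Hif1a probe sets differed by -0.40, 0.13 and -0.007, so they did not share a direction, and the protein, through which HIF-1 is mainly regulated, was not measured. Vegfa read 195, 207, 196, 200.4 and 199 with Trp63 siRNA against 218 and 214 with control siRNA (log2 difference -0.11, SE 0.050, limma adjusted p = 0.187), with the silenced values just below the controls, and its other probe set differed by -0.008.

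Within the silenced group, 18 of the 36 genes (50%) had replicates 1 and 2 both above replicates 3, 4 and 7, against 23.2% of all probe sets. They included Slc2a1, Pfkl, Pfkp, Ldhb, Pdk1, Tpi1, Gys1, Hk1, Hk2, Aldoc and Rpia. All 9 melanocyte markers had the same order, and 7 of 10 fibroblast markers. The high and low arrays were named from the mean of these same 9 melanocyte markers, so their order is not a separate observation. The part of the melanocyte level in this order was not tested. With the melanocyte level as a block the log2 differences of Pfkl, Pfkp, Ldhb and Pdk1 were -0.97, -0.97, -0.82 and -0.84, with limma adjusted p of 0.000267, 8.2e-05, 3.5e-05 and 0.00105. Without silenced replicates 1 and 2 together, 16 genes were lower and 5 higher, beside 16.2% and 12.9% of all probe sets. The share of genes that were higher was thus near that of the whole array. All 18 genes called with 7 arrays were still called.

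Other genes of the same pathways, in 7 lists written by function, are given for the surroundings. Of 100 measured, 21 (21%) passed as lower and 6 (6%) as higher, beside 8.16% and 7.83% of all probe sets. The median log2 difference was -0.049, beside -0.034 over all probe sets. These counts fell to 12 and 3 without control array 5, to 9 and 1 without control array 6, and to 10 and 2 with the spike block. Among 12 further carriers 4 (33.3%) fell and none rose. They included the urate and fructose carrier gene Slc2a9 (-0.44), the sodium-glucose cotransporter gene Slc5a1 (-0.63) and Emb (-0.45), whose product embigin accompanies monocarboxylate carriers. Slc2a9 read 96.6 ± 9.33 (SD, n = 5) against 137 ± 8.23 (SD, n = 2). On the silenced arrays Slc2a9 and Slc5a1 both read under each array's lower quartile, so these values are near the lower end of the arrays. Slc5a1 read 117, 104, 94.8, 98.9 and 101 with Trp63 siRNA against 208 and 136 with control siRNA, and its controls were far apart. Its log2 difference was -0.35 without control array 5, and it lost its call with the spike block (limma adjusted p = 0.0687).

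Of 18 other genes of glycolysis and gluconeogenesis, 3 (16.7%) rose and 1 (5.56%) fell, beside 7.83% and 8.16% of all probe sets. The share that fell was thus below that of all probe sets. The risers were Fbp2 (0.53), encoding a fructose bisphosphatase that opposes phosphofructokinase, the mitochondrial glycerol phosphate dehydrogenase gene Gpd2 (0.33) and the bisphosphoglycerate mutase gene Bpgm (0.31). On both controls Fbp2 read under the lower quartile of the array (122 and 118). Fbp2 read 167, 145, 172, 192 and 199 with Trp63 siRNA against 116 and 116 with control siRNA, with all silenced values higher, and lost its call once either control was removed (limma adjusted p = 0.0603 and 0.0716). Gpd2 and Bpgm lost theirs without control array 6 (0.105 and 0.262), where Bpgm differed by 0.20 on the log2 scale, and with the spike block, and Bpgm also without silenced replicate 3, 4 or 7. Gapdhs, the sperm form of the dehydrogenase, was the one that fell (-0.36), a call that ended without control array 6 (0.0506).

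Of 18 other genes of glycogen and hexose phosphates, 5 (27.8%) fell and 2 (11.1%) rose, beside 8.16% and 7.83% of all probe sets. The galactose enzyme gene Galt (-0.44), the UDP-glucose dehydrogenase gene Ugdh (-0.41) and the phosphomannomutase gene Pmm1 (-0.47) fell, while Mpi (0.33), of mannose metabolism, and Gyg (0.27), the primer protein of glycogen, rose. Pmm1 and Gyg lost their calls without either control, and Ugdh and Mpi without control array 6. Gyg also lost its call without silenced replicate 3, 4 or 7. With the spike block Pmm1 and Gyg lost theirs as well (limma adjusted p = 0.065 and 0.069). None of 6 further pentose phosphate genes passed, Prps2 having the smallest p (log2 difference -0.32, SE 0.10, limma adjusted p = 0.0619), and 1 was under an unadjusted p of 0.05. Of 5 further genes of pyruvate dehydrogenase and pyruvate carboxylation, Pcx alone fell (-0.20, limma adjusted p = 0.045), a call lost without either control and in 8 other alternatives.

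In the list of the HIF pathway and hypoxia-induced genes, 7 of 20 (35%) fell and 1 (5%) rose, beside 8.16% and 7.83% of all probe sets. The number that fell was 4 without control array 5, 3 without control array 6 and 4 with the spike block. Bnip3, a mitophagy gene, read 428, 469, 354, 381 and 361 with Trp63 siRNA against 671 and 681 with control siRNA (log2 difference -0.75, SE 0.11, limma adjusted p = 0.00208). The collagen hydroxylase gene P4ha1 (-0.48) and Higd1a (-0.40), of mitochondria, also fell, the latter losing its call without control array 6 (limma adjusted p = 0.052). Ddit4, an inhibitor of mTOR signalling that stress induces, rose (0.31, limma adjusted p = 0.0348), and lost its call without silenced replicate 2, 3, 4 or 7 and with the spike block (0.13). Without control array 5 its log2 difference was 0.17 (limma adjusted p = 0.306). The median log2 difference of the list was 0.009, and 12 of its 20 genes did not pass.

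Of 21 measured genes of the citric acid cycle and its side reactions, 3 (14.3%) fell, none rose and 18 did not pass. All 21 lay in the brighter 50% of the array, where 13.2% of probe sets were lower, so this share is near the background. Suclg2, encoding a succinyl-CoA ligase subunit, read 506, 486, 446, 435 and 440.4 with Trp63 siRNA against 779 and 713 with control siRNA (log2 difference -0.67, SE 0.083, limma adjusted p = 0.000803). Sdhd (-0.32) and Idh1 (-0.27) were the others, and both lost their calls without either control, which left 1 gene lower in each case. Both also lost their calls with the spike block (limma adjusted p = 0.0854 for Sdhd and 0.204 for Idh1). Idh1 further lost its call without silenced replicate 2, 3, 4 or 7. The same held for Idh1 with quantile normalisation (limma adjusted p = 0.0508) and median centring (0.0531).

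**Figure D4:**
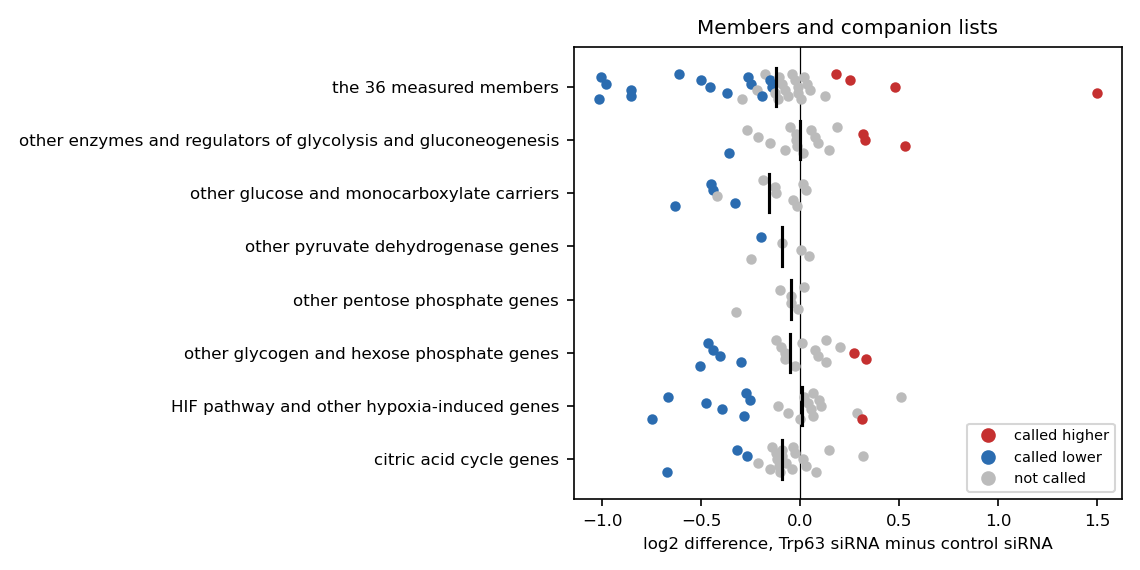
Log2 difference (Trp63 siRNA minus control siRNA) of each measured gene, 1 row per list, with blue for called lower, red for called higher, grey for not called and a black bar at the median; vertical offsets only separate points. The 36 members spread from -1.02 to 1.5, wider than any of the 7 other lists, whose differences lie between -0.75 and 0.53.

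**Figure D5:**
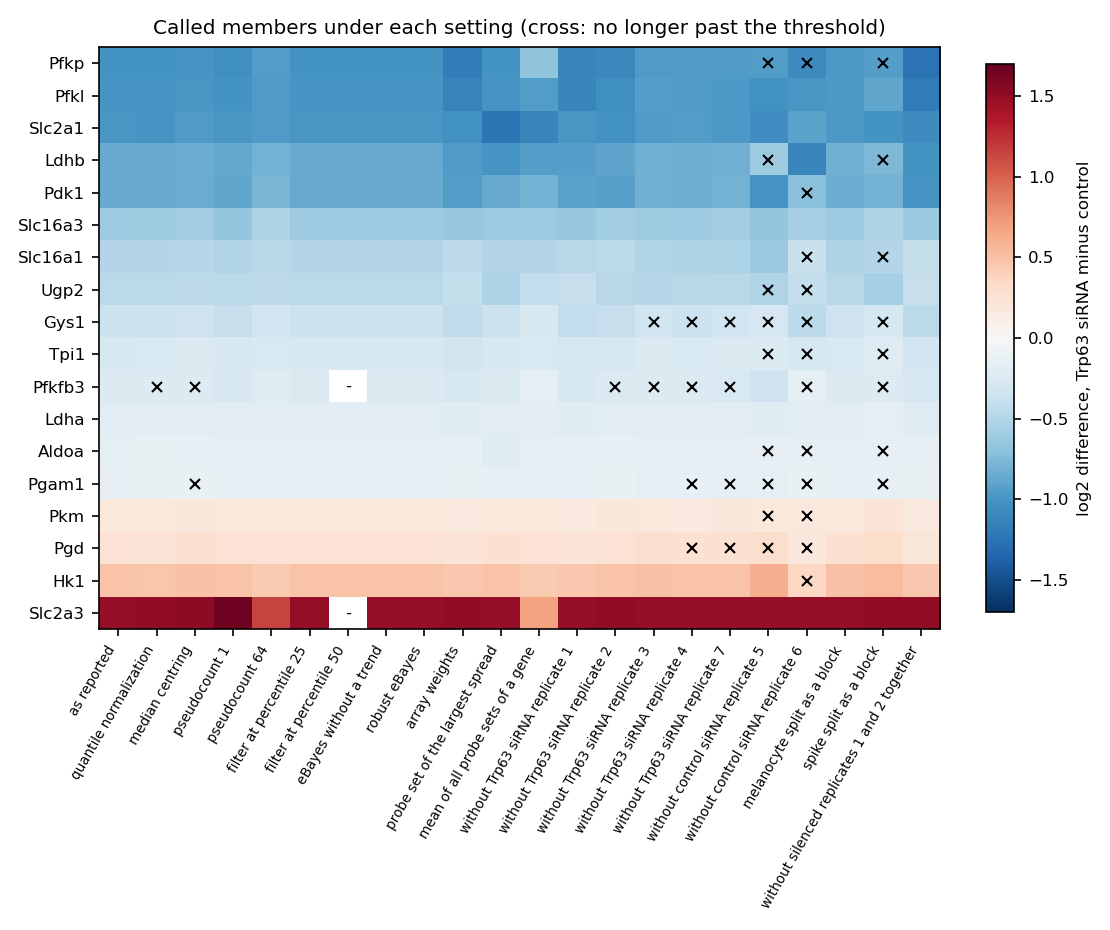
Log2 difference of the 18 called genes (rows) as reported and under 21 alternatives (columns), by colour, with a cross where the gene was no longer past the threshold and a dash where a filter removed it. Slc2a1, Pfkl, Slc16a3, Ldha and Slc2a3 have no cross, and most crosses lie in the columns without control array 5, without control array 6 and with the spike block.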

How the data were processed

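Total RNA was extracted with Trizol and biotinylated cRNA hybridised to Affymetrix arrays, per the labels' protocols. The deposited values are intensity values on a linear scale, 1 per probe set and array. Their probe summary, background correction and normalisation by the authors are not given in the sources used here. Array medians were 207 to 214. The 64 control probe sets were left out, and log2(intensity + 16) of 22626 probe sets was fitted with limma 3.58.1 (lmFit, eBayes with a variance trend, R 4.3.3) over 5 silenced and 2 control arrays, p-values being adjusted by Benjamini-Hochberg across the whole table and called at 0.05. Fold changes are on this scale, so the pseudocount of 16 understates changes of low probe sets. Tests of this model, which was tested on simulated data, are two-sided, and intervals are 95%. All adjusted p-values are limma's.

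Genes were named from the platform annotation, and 20380 probe sets had 1 symbol, 691 several and 1555 none. Members past the threshold, every Slc2a3 probe set and, where a role had none past it, the smallest p were named with all arrays; from each other list up to 3 per direction with the smallest p, or 1 where none passed. Further members were given in full where a sentence needed them. Members and lists were chosen with earlier results of these data known. Upstream windows came from RefSeq, build GRCm38.p6, and were searched for ACGTG and GCGTG on both strands. Alternatives covered normalisation, pseudocounts of 1 and 64, filters on low probe sets, variance models, array weights, the choice of probe set and leaving out each array. Blocks for the melanocyte and spike levels, the removal of silenced replicates 1 and 2 together, and Gapdh tested with all controls added were chosen after seeing the data. The number of arrays limits the precision. Figures were drawn with matplotlib 3.10.9.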

Additional observations from a re-analysis of the deposited data

Results flagged for a closer look

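In 5 of 60 gene results checked, 1 array of the silenced group stood far from the other 4, and each time it was silenced replicate 1; chance alone does so in about 1 of 20 groups, and the genes of an array are not independent. The distance is the gap to the nearest array as a share of the range of the group, with a critical value of 0.71. Hif1a had the largest share at 0.899, with an intensity of 922 against 1433 to 1506 on the other silenced arrays. Ugp2 had a share of 0.832, with 833 against 1041 to 1089. Gapdhs had a share of 0.815, with 192 against 169.6 to 174. For Slc2a9 the share was 0.765, with 113 against 90.7 to 95.5. For Hk1 it was 0.757, with 833 against 756 to 774. Silenced replicate 1 was also the array least like the others of its group (SD of log2 differences 0.194 to 0.260) and had the lowest weight, 0.270, when limma estimated array weights.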

How the results depend on the processing

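No result of a member or named gene changed direction past the threshold. Of the 18 called members, 5 kept their call under each of the 21 alternatives in which they were tested, and of 20 called genes named from the other lists 6 did. Of the 18 members not called, 14 were not called under any alternative. Leaving out 1 array gave 1 to 5 members higher and 5 to 15 lower, 1 to 7 other genes higher and 9 to 27 lower, and 1374 to 5502 probe sets called of 3618 with all arrays. The melanocyte block gave 10 other genes higher and 5458 probe sets called. The spike block gave 6 members lower, 2 other genes higher and 10 lower, and 1920 probe sets called; no control had the high spike level. Without silenced replicates 1 and 2 together, 34 other genes were lower and 6575 probe sets were called. The cause was not tested for the blocks, and fewer arrays entered the other fits. No paired analysis was possible because the groups share no replicate numbers. Gapdh had no other probe set of its own symbol, so its control probe sets stand alone. With 2 controls, each call rests on the spread of the silenced group and the limma variance trend once 1 control is left out. Differences at probe sets near the array's lower end, such as Slc2a3 in the controls, are limited by the signal over background, which the deposited intensities do not separate.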
